A study of Mus musculus with 7 samples.

Results

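Chromatin was examined in cerebellar granule cells at 8 genes of cell migration and axon guidance, 3 semaphorins (Sema6a, Sema6d and Sema3a), 3 plexins (Plxna2, Plxna4 and Plxnb2), the neuropilin Nrp1 and the chemokine receptor Cxcr4, among 21938 protein-coding genes. A ChIP-seq peak was assigned to a gene when its centre fell inside the gene body or no more than 50 kb from either end (mm10, GENCODE M21). Peak lists were analysed for Chd7 in WT granule neuron progenitors (GNPs), Chd7 in Chd7-deficient GNPs, H3K27ac in WT GNPs, and Top2b in WT and in Chd7-deficient cerebellar granule neurons (CGNs), with 1 library per condition. GNPs were freshly isolated on a percoll gradient from P7 cerebella. CGNs also came from P7 cerebella, but were kept for 48 h in medium without SHH. The strain is C57BL/6 in the sample labels and C57BL/6N in the study's methods. The sample labels give the genotype only as Chd7 KO or nothing, and in the study's own naming the mutants are Atoh1-Cre::Chd7 f/f and WT means Chd7 f/f without Cre, so that controls also carry the floxed alleles. Atoh1-Cre acts in the granule lineage, and some Chd7 protein remains in the posterior lobe, probably because recombination is less efficient there.

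Semaphorins are secreted or membrane-bound guidance cues that repel or attract growth cones and migrating neurons. Plexins are their receptors, and neuropilins bind the secreted class 3 semaphorins together with a plexin. In the postnatal cerebellum granule cells leave the external granule layer along the radial fibres of Bergmann glia. Cxcr4 is the receptor of Cxcl12, a chemokine from the meninges that holds proliferating GNPs at the surface, whereas Sema6a and Plxna2 are known for their part in the start of inward migration. Chd7 is an ATP-dependent chromatin remodeller, and H3K27ac marks active promoters and enhancers. Top2b, by the study the only topoisomerase II in CGNs, relieves torsion, in neurons above all at long genes.

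WT GNPs had 1946 Chd7 peaks and 31400 H3K27ac peaks, Chd7-deficient GNPs had 96 Chd7 peaks, and the Top2b lists held 17030 peaks in WT and 21505 in Chd7-deficient CGNs. The study's methods give a lower bound on mapped reads, but not the depth of each library. Per library only the pileup is known, the number of overlapping fragments at a summit, which for H3K27ac is scaled and no longer a whole count. Fold enrichment is this pileup over the local background, with 1 added to each. The q-value is the p-value of a peak adjusted by the peak caller for the number of places tested. With a single library each, the spread between animals is not known, and the values of the 2 genotypes are given side by side without a test. All 9 GNP markers examined, Atoh1 and Barhl1 among them, had an H3K27ac peak within 1 kb of a start. The markers of other cells of the cerebellum were marked in 2 of 5 for Purkinje cells, 2 of 4 for interneurons, 2 of 4 for Bergmann glia and astrocytes, 1 of 5 for oligodendrocytes, 1 of 3 for microglia and 1 of 3 for endothelial cells. Of all protein-coding genes 46.5% had such a peak. The marked genes were Foxp2 and Lhx5 for Purkinje cells, Gad1 and Pax2 for interneurons, and Gfap and Slc1a3 for glia. They were Mbp for oligodendrocytes, Csf1r for microglia and Pecam1 for endothelial cells. The unmarked genes of these lists included Calb1, Car8, Pcp2, Gad2, Aqp4, Gdf10, Mog, Olig1, Olig2, Sox10, Aif1, Cx3cr1, Cdh5 and Cldn5. How far other cells added to the peaks described here was not tested.

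The 8 genes and their surroundings had 2 WT Chd7 peaks, 0 Chd7 peaks of Chd7-deficient GNPs, 36 H3K27ac peaks, 31 WT Top2b peaks and 36 Top2b peaks of Chd7-deficient CGNs. A WT Chd7 peak was found at 2 of 8 genes, Sema6a and Cxcr4, where 14.3% of all protein-coding genes had one in a window drawn the same way. An H3K27ac peak was found at 6 of 8, against 73.5% of all genes, and the genes without one were Plxna4 and Nrp1. A WT Top2b peak was found at 7 of 8 (62.2% of all genes) and a Top2b peak of Chd7-deficient CGNs at 8 of 8 (71.0% of all genes). These counts lean on gene length, since the 8 genes had a median length of 172 kb and all protein-coding genes one of 17.4 kb. Per 100 kb of window the medians over the 8 genes were 1.77 H3K27ac peaks, 1.41 WT Top2b peaks and 1.31 Top2b peaks of Chd7-deficient CGNs. Over all genes the medians per 100 kb were 1.59, 0.792 and 0.940. Pooled over the windows, whose lengths differ, the order for H3K27ac was the opposite, with 1.28 peaks per 100 kb at the 8 genes and 2.17 over the windows of all genes, which overlap and count some peaks more than once. The pooled densities of WT Chd7 peaks were 0.0713 and 0.115 per 100 kb, those of WT Top2b peaks 1.11 and 0.889, and those of Top2b peaks of Chd7-deficient CGNs 1.28 and 1.23.

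**Figure D1:**
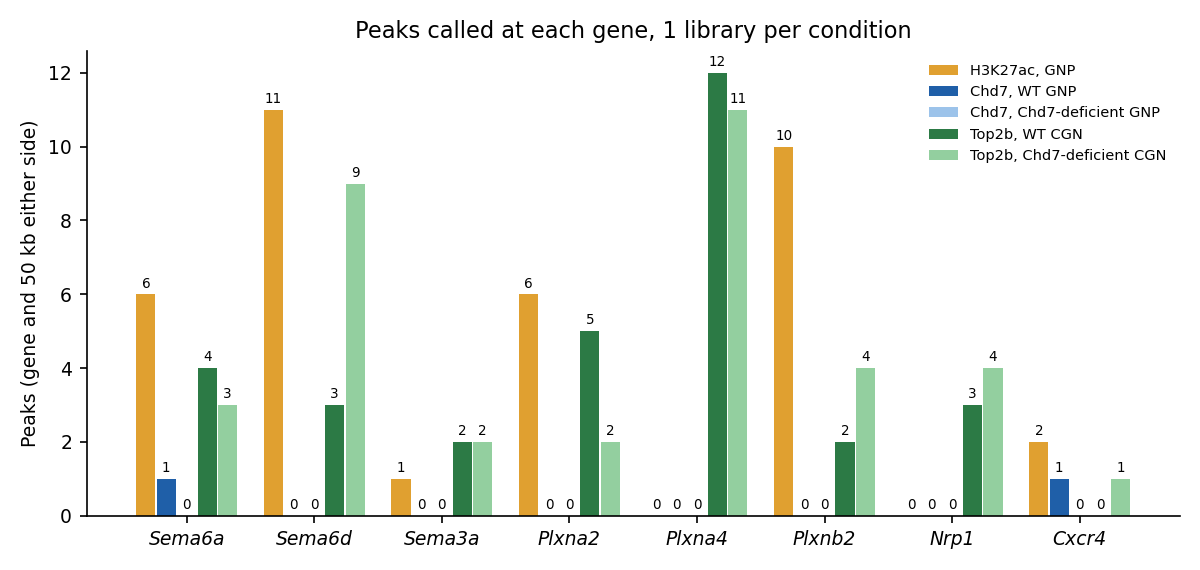
The bars give the number of peaks in each gene and 50 kb either side, in 5 libraries with 1 library per condition, so that no error bars can be drawn. Chd7 of WT GNPs has 1 peak each at Sema6a and Cxcr4 and none elsewhere, while Plxna4 has the most Top2b peaks (12 and 11) and no H3K27ac peak.

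Sema6a, a transmembrane semaphorin, lies at chr18:47235598-47368870 on the minus strand. It had 6 H3K27ac peaks, 5 of them with their centre in the gene. The widest (chr18:47365350-47371003) covered the main starts with a scaled pileup of 144.9 and a fold enrichment of 19.1, and 1103 of the 31400 H3K27ac peaks had a higher fold enrichment. A further peak with a fold enrichment of 2.82 lay 151 bp from the start of shorter transcripts, and the other 4 had fold enrichments between 2.93 and 5.06. The WT Chd7 peak (chr18:47366353-47366656) lay in the first part of the gene, in an intron, with its centre 1.76 kb downstream of a start and inside the wide acetylated region. Its pileup was 23 fragments (95% exact Poisson interval 14.6 to 34.5, counting error only), its fold enrichment 3.84 and its −log10 q-value 4.49. Of all WT Chd7 peaks 37.8% had a lower fold enrichment, and their median was 4.07, with a median pileup of 21 fragments. No Chd7 peak of Chd7-deficient GNPs was called here. The list of Chd7-deficient GNPs holds only called peaks, of which 12 of 96 had a lower −log10 p-value than the 8.70 of the WT peak. Whether the same binding would reach this value in that library cannot be told, because its own depth is not given.

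Top2b was found at the same start of Sema6a in both genotypes, at different places. In WT CGNs 1 of 4 Top2b peaks lay there (chr18:47367426-47367821, centre 0.645 kb from a start), and the other 3 lay in introns. In Chd7-deficient CGNs 2 of 3 peaks lay in the acetylated region. One of them (chr18:47366355-47366754) overlapped the WT Chd7 peak of GNPs and the other (chr18:47368861-47369260) covered the outermost start, while the remaining one lay 39.9 kb upstream. Among all Top2b peaks of Chd7-deficient CGNs, 3.09% overlapped a WT Chd7 peak, and of all WT Top2b peaks 1.90% did. At the 8 genes together this was 1 of 36 and 0 of 31.

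**Figure D2:**
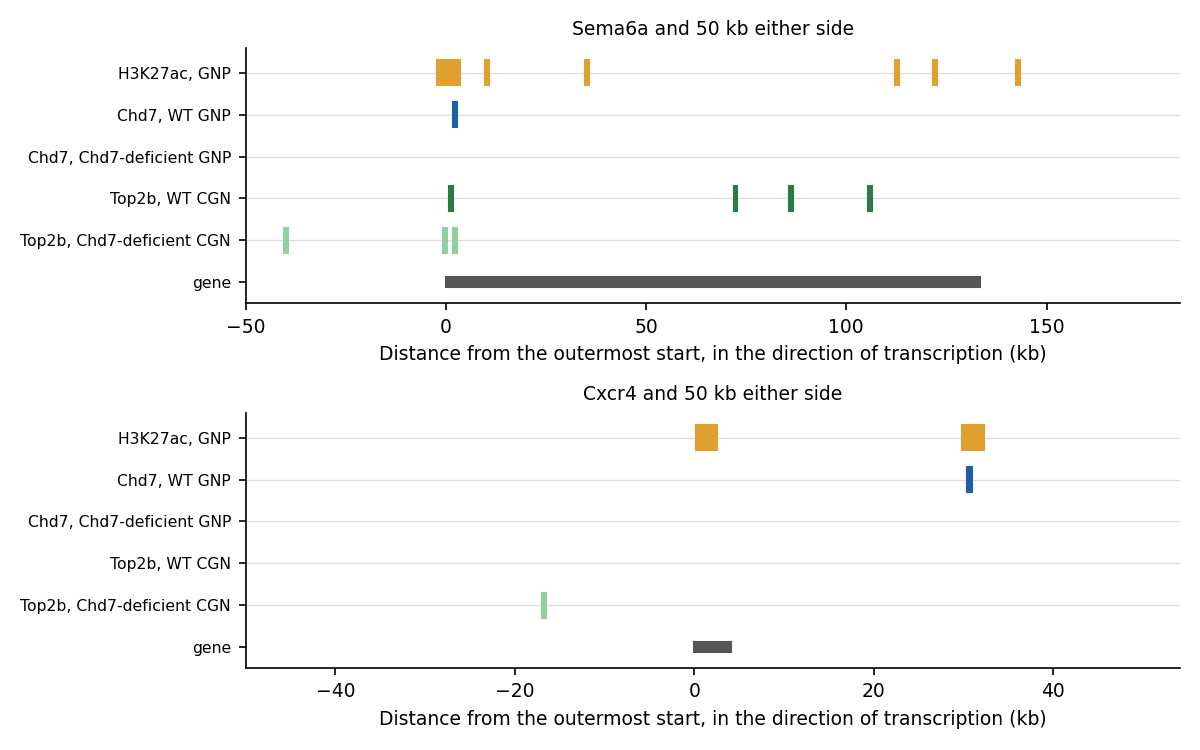
Peaks of the 5 libraries along Sema6a and Cxcr4, drawn by their distance from the outermost start in kb, with 50 kb either side of the gene (grey bar). Peaks narrower than 0.4% of the axis are drawn at that width. The WT Chd7 peak of Sema6a lies just inside the gene, at its acetylated start, and that of Cxcr4 lies behind the gene in a separate H3K27ac peak.

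Sema6d, another transmembrane semaphorin (chr2:124089969-124667770, plus strand), is the longest of the 8 genes at 578 kb. It had 11 H3K27ac peaks, all in the gene, and no Chd7 peak in either genotype. Its annotated starts fall into separate groups, and 3 of these had H3K27ac within 1 kb. The peak over the internal starts (chr2:124609625-124613415) reached a scaled pileup of 96.9 and a fold enrichment of 8.90. The peak at the outermost start (chr2:124090267-124090886) reached a scaled pileup of 21.7 and a fold enrichment of 4.27, and that at the last start (chr2:124653206-124653699) 26.4 and 4.40. In this library the internal starts of Sema6d thus stood above the starts at either end. The other 8 peaks had lower fold enrichments, between 2.80 and 4.14, and lay in introns. Top2b peaks numbered 3 in WT CGNs and 9 in Chd7-deficient CGNs, and 0 of the 3 overlapped one of the 9. In Chd7-deficient CGNs 8 of them lay in introns, and 1 of these (chr2:124612042-124612441) lay in the H3K27ac peak over the internal starts, 1.64 kb from the nearest of them. WT CGNs had 2 in introns and 1 in a UTR (chr2:124666826-124667221).

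Sema3a, a secreted class 3 semaphorin (chr5:13125414-13602565, plus strand), had a single H3K27ac peak in a window of 577 kb and no Chd7 peak in either genotype. That peak (chr5:13420985-13422552) was intronic, with its centre 22.2 kb downstream of the nearest start. It had a scaled pileup of 65.9 and a fold enrichment of 12.6, above 90.03% of all H3K27ac peaks, while no start of Sema3a had H3K27ac within 1 kb. Top2b had 2 peaks in each genotype, none at a start and none shared. The 300 bp around the H3K27ac summit and the 300 bp of the RefSeq promoter of Sema3a (GRCm38) are printed to show the acetylated element beside the unmarked start. In the first, capitals mark the only match to the motifs searched (TTGGCA, a site bound by NFI factors, 25 bases right of the summit), which 14.4% of 31395 H3K27ac summit windows held. In the second, capitals mark CpG pairs, of which this promoter had 2 at a GC content of 41.3%.
Sema3a H3K27ac peak, chr5:13421524-13421823, plus strand: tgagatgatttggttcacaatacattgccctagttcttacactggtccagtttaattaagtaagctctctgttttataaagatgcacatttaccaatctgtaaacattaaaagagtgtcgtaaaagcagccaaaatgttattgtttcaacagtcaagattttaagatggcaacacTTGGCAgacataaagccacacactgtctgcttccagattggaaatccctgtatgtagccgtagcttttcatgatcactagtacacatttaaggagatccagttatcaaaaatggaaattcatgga
Sema3a promoter, chr5:13396534-13396833, plus strand: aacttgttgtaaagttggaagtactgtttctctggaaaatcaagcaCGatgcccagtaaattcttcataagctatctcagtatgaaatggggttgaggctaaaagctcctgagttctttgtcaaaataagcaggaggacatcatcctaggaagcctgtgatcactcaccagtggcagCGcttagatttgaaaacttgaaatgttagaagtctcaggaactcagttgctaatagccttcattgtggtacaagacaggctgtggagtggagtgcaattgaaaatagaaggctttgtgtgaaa

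Plxna2, a receptor of Sema6a (chr1:194618218-194816869, plus strand), had 6 H3K27ac peaks and no Chd7 peak. One peak (chr1:194619199-194620855) covered the start of the full-length transcript with a scaled pileup of 65.9 and a fold enrichment of 4.46. The other 5 stood together upstream of the gene, with centres between 29.1 and 40.1 kb from the start. The highest of them (chr1:194577907-194578355) had a fold enrichment of 5.55, above that of the start, but a scaled pileup of 48.9, below that of the start. Top2b had 5 peaks in WT CGNs, of which 2 (chr1:194619300-194619695 and chr1:194620344-194620739) lay in the acetylated region at the start. In Chd7-deficient CGNs there were 2 Top2b peaks, neither at a start. The peaks 4.31 kb (WT) and 4.08 kb (Chd7-deficient) upstream of the start overlapped by 177 bp.

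Plxna4, a receptor that works with neuropilins and also binds class 6 semaphorins (chr6:32144268-32588192, minus strand), had no H3K27ac and no Chd7 peak within 50 kb. The closest H3K27ac peak was 338 kb outside the gene, nearest to Podxl, with a fold enrichment of 2.93. By number Plxna4 had the most Top2b peaks of the 8 genes, 12 in WT and 11 in Chd7-deficient CGNs, or 2.21 and 2.02 per 100 kb. Per 100 kb it was highest of the 8 in WT, while in Chd7-deficient CGNs Plxnb2 was higher at 3.19. Of all protein-coding genes 2179 had a higher density of WT Top2b peaks and 4884 a higher density in Chd7-deficient CGNs. In WT CGNs 10 of the 12 peaks lay in introns, and in Chd7-deficient CGNs 9 of 11. Both genotypes had 1 peak within 1 kb of the outermost start (chr6:32587673-32588068 in WT and chr6:32587336-32587735 in Chd7-deficient CGNs), and these overlapped by 63 bp. A second pair in an intron also overlapped by 63 bp, and the remaining 10 WT peaks overlapped none of the other genotype. H3K27ac was measured in progenitors and Top2b in neurons after culture, so an unmarked gene with Top2b peaks compares 2 stages of the lineage.

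Nrp1, which binds class 3 semaphorins (chr8:128358604-128503363, plus strand), likewise had no H3K27ac and no Chd7 peak in its window. The closest H3K27ac peak was 151 kb outside the gene and nearest to Itgb1. Top2b had 3 peaks in WT and 4 in Chd7-deficient CGNs. No WT peak was within 1 kb of a start, whereas 2 peaks of Chd7-deficient CGNs were, one on each side of it (chr8:128358087-128358486 and chr8:128359521-128359920). Another peak of Chd7-deficient CGNs, with its centre 3.83 kb into the gene, overlapped a WT peak by 203 bp.

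**Figure D3:**
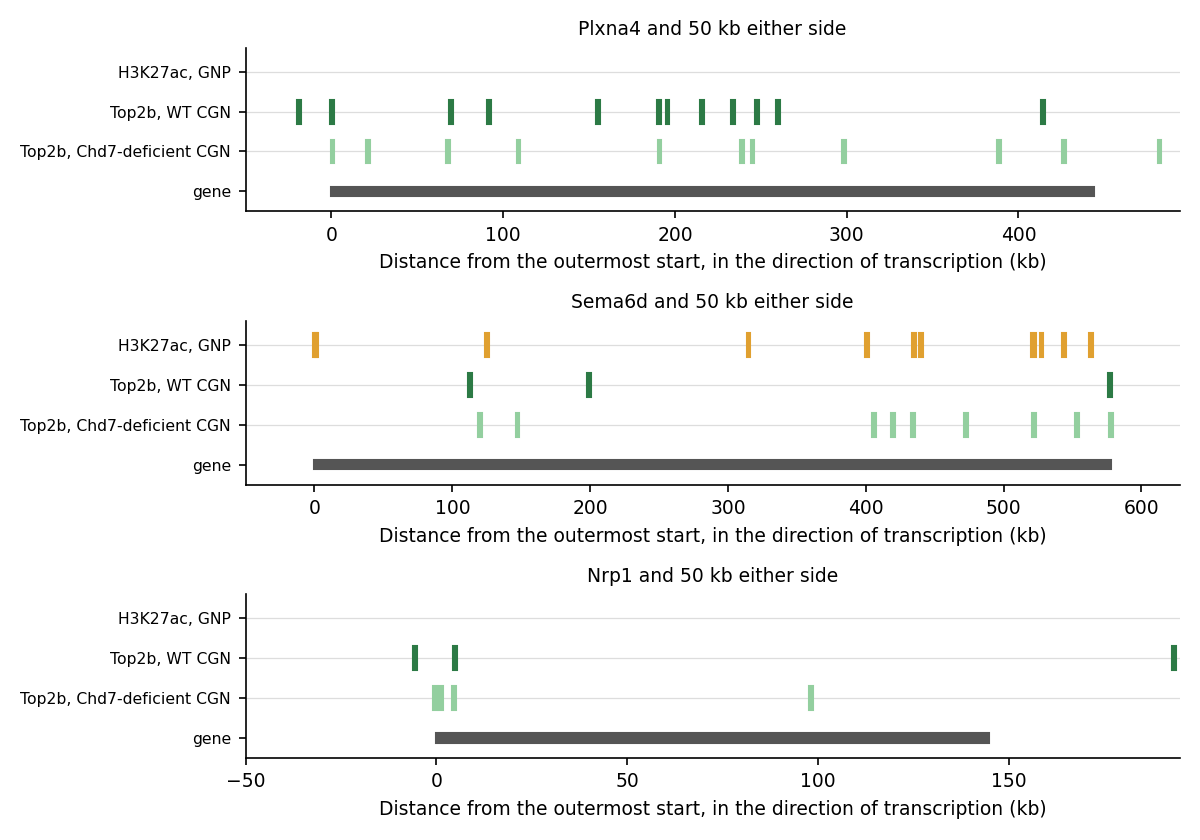
Top2b peaks of WT and Chd7-deficient CGNs, and H3K27ac peaks of WT GNPs, along Plxna4, Sema6d and Nrp1 (distance from the outermost start in kb, 50 kb either side, gene as a grey bar). Peaks narrower than 0.4% of the axis are drawn at that width. Top2b peaks of the 2 genotypes interleave along Plxna4 and Sema6d, and at Nrp1 only Chd7-deficient CGNs have peaks directly beside the start.

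Plxnb2, the receptor that class 4 semaphorins engage (chr15:89155549-89180788, minus strand), was the most densely acetylated of the 8 genes. H3K27ac peaks covered 12.1% of its window, and 434 of 21938 genes had a higher cover. It had 10 H3K27ac peaks, of which 5 lay nearest to a start of Plxnb2 and the others nearest to starts of Tubgcp6, Hdac10, Mapk11, Dennd6b and Ppp6r2. The peak at its start (chr15:89179642-89182038) had a fold enrichment of 14.4, the highest of the 10, with 2334 peaks of the library above it. Its scaled pileup was 114.8, below those of the peaks nearest to Ppp6r2 (131.8) and Dennd6b (121.4). Plxnb2 had no Chd7 peak in either genotype, and the closest one was 293 kb away and nearest to Pim3. Both WT Top2b peaks lay outside the gene, in Hdac10 and Ppp6r2. In Chd7-deficient CGNs 2 of 4 Top2b peaks were within 1 kb of the start, and 1 of these covered it (chr15:89180525-89180924).

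Cxcr4 (chr1:128588199-128592293, minus strand) is short, at 4.10 kb. It had 2 H3K27ac peaks of similar height. One (chr1:128589751-128592056) covered most of the gene up to 234 bp from its start, with a scaled pileup of 64 and a fold enrichment of 7.24. The other (chr1:128559959-128562413) lay 27.01 kb downstream of the end of the gene, with a pileup of 68.7 and a fold enrichment of 6.97. The WT Chd7 peak (chr1:128561365-128561859) lay inside the downstream H3K27ac peak, and the start of Cxcr4 was the nearest protein-coding start, 30.7 kb away. It had a pileup of 24 fragments (95% exact Poisson interval 15.4 to 35.7), a fold enrichment over the local background of 4.004 and a q-value of 5.06 on the −log10 scale, and 47.0% of WT Chd7 peaks had a lower fold enrichment. No Chd7 peak was called here in Chd7-deficient GNPs, where 13 of 96 peaks had a lower −log10 p-value than the 9.38 of this one. Cxcr4 was the only one of the 8 genes with no WT Top2b peak, and its 1 Top2b peak in Chd7-deficient CGNs lay 16.8 kb upstream of the gene (chr1:128608856-128609255).

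The 300 bp around the Chd7 summit downstream of Cxcr4 are printed with the motif matches in capitals. CAGATG, a form of the E-box bound by Atoh1 and Neurod factors, matched 116 bases left of the summit on the minus strand and 28 bases right of it on the plus strand, and TTGGCA matched 120 bases right of it. These motifs occurred, on either strand, in 31.2% and 25.5% of the 1902 windows around WT Chd7 summits on the assembled chromosomes. The matches did not overlap each other. CAGCTG (in 26.1% of the windows), CAGCAGG (14.6%), ACAAAG (19.98%), GACCACCCA (0.368%) and TGACGTCA (1.37%) were not found in this window.
Cxcr4 downstream Chd7 peak, chr1:128561424-128561723, plus strand: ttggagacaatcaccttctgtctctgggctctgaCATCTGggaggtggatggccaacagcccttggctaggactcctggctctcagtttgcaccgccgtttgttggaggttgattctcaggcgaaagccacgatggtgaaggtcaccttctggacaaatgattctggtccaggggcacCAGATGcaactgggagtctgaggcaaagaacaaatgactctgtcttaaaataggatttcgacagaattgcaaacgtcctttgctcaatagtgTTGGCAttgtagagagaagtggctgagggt

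RefSeq promoter windows of 300 bp, which end 50 bp after a start (GRCm38), were matched for 6 of the 8 genes, not for Sema6a and Plxna4. Across 32851 promoters of mouse genes 30.1% overlapped H3K27ac in GNPs, with a median of 23 CpG pairs in those that did and 4 in those that did not. The acetylated promoters of Plxnb2 and Plxna2 had 27 and 25 CpG pairs, and the acetylated last promoter of Sema6d had 6. The outermost promoter of Sema6d and that of Nrp1, neither overlapping H3K27ac, had 14 each, more than 63.7% of all promoters. An H3K27ac peak lay 298 bp from this start of Sema6d, whereas Nrp1 had none in its window. A second promoter window of Plxnb2 (chr15:89173902-89174201), which did not overlap H3K27ac, had 15. The promoter of Cxcr4 had 20, and the acetylated region of the gene ended inside the gene and short of this window. The counts of promoter windows that overlapped H3K27ac (6 to 27) and of those that did not (2 to 20) shared a range. Some of the latter, as at Sema6d and Cxcr4, had H3K27ac close by. The promoters of Plxnb2, Cxcr4 and Nrp1 are printed in the direction of transcription with CpG pairs in capitals, to compare one strongly acetylated start, one acetylated only downstream, and one with Top2b on both sides in Chd7-deficient CGNs and no H3K27ac.
Plxnb2 promoter, chr15:89180739-89181038, minus strand: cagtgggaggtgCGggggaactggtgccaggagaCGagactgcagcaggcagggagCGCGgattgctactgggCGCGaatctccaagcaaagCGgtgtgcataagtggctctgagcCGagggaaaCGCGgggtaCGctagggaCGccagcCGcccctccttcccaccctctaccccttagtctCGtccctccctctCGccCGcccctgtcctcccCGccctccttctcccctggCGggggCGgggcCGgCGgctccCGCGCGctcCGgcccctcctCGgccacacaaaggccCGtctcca
Cxcr4 promoter, chr1:128592250-128592549, minus strand: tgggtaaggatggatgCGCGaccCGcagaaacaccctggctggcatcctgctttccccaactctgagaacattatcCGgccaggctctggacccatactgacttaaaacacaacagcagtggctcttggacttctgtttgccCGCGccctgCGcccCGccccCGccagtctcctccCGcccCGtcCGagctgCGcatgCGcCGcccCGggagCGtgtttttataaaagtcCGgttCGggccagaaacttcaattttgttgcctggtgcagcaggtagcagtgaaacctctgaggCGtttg
Nrp1 promoter, chr8:128358823-128359122, plus strand: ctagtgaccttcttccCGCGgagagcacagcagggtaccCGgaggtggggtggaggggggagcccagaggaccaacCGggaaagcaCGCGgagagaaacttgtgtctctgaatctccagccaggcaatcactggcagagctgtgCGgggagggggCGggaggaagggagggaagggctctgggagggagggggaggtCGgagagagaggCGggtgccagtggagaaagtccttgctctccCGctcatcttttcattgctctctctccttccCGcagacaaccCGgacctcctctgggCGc

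Chd7 binding was next compared across the 8 genes. Both WT Chd7 peaks overlapped H3K27ac, as did 77.9% of all WT Chd7 peaks, and with 2 peaks the share at these genes (95% exact interval 15.8% to 100%) is hardly limited. Conversely, 2 of 36 H3K27ac peaks at the 8 genes (5.56%, 0.680% to 18.7%) overlapped Chd7, close to the 4.98% of all H3K27ac peaks. No WT Chd7 peak lay close to the limit of 50 kb. The peak of Cxcr4 was 26.6 kb outside its gene, and the closest WT Chd7 peak beyond the limit was 182 kb outside Nrp1. For the remaining genes the closest one was 293 kb (Plxnb2), 457 kb (Plxna2), 745 kb (Plxna4), 814 kb (Sema6d) and 1352 kb (Sema3a) away. At a −log10 q-value of at least 5 only the peak of Cxcr4 remained, and within gene bodies only that of Sema6a. None of the 8 genes had a Chd7 peak in Chd7-deficient GNPs, where 0.205% of all genes had one.

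H3K27ac was found within 1 kb of a start at 5 of 8 genes, against 46.5% of all protein-coding genes. Of the 36 H3K27ac peaks 8 were at a start and 28 elsewhere. Their median fold enrichment was 4.34, where all H3K27ac peaks had 4.35. The single genes spread from no peak to a fold enrichment of 19.1. When H3K27ac peaks closer together than the stitching distance usual for super-enhancers were joined and ranked by width times pileup, 612 of 17539 regions lay above the point where the curve turned steep and were taken as super-enhancer-like domains. Such a domain overlapped 2 of 8 genes, Sema6a (rank 271, 12.6 kb) and Plxnb2 (rank 272, 24.7 kb), against 4.18% of all protein-coding genes. The domain of Sema6a held 1 WT Chd7 peak and that of Plxnb2 held 0, and the latter also took in the start of Dennd6b. With H3K27ac peaks within 1 kb of any start left out before joining, 0 of 8 genes overlapped such a domain, so both calls rested on acetylation at promoters. The joined region of Cxcr4 with the Chd7 peak ranked 3407.

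**Figure D4:**
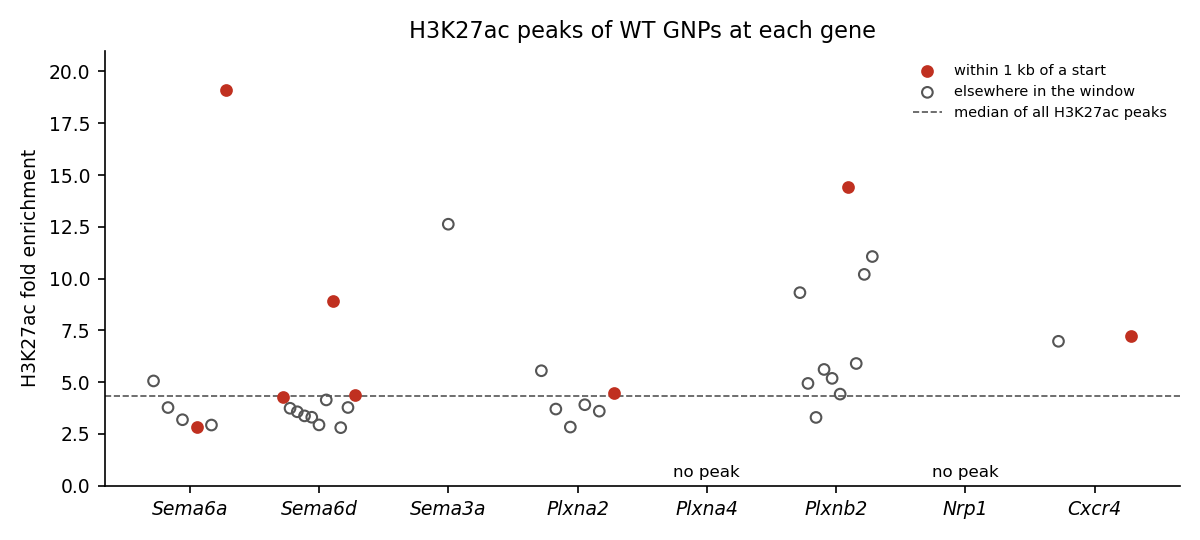
Each point is an H3K27ac peak of WT GNPs (1 library), placed by gene and by its fold enrichment over the local background. Filled points lie within 1 kb of a start and the dashed line is the median of all 31400 peaks, 4.35. Sema6a and Plxnb2 have their highest peak at a start (19.1 and 14.4), whereas the 1 peak of Sema3a (12.6) is away from any start.

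Top2b peaks at the 8 genes numbered 31 in WT and 36 in Chd7-deficient CGNs, a ratio of 1.16. The whole Top2b lists, which also hold peaks outside gene windows, had a ratio of 1.26. Over the windows of all genes there were 0.889 WT peaks and 1.23 peaks of Chd7-deficient CGNs per 100 kb. More peaks were called in Chd7-deficient CGNs at 4 genes (Sema6d, Plxnb2, Nrp1 and Cxcr4), fewer at 3 (Sema6a, Plxna2 and Plxna4), and the same number at Sema3a. Of the 31 WT peaks 4 (12.9%, 95% exact interval 3.63% to 29.8%) overlapped a peak of Chd7-deficient CGNs, and of all WT Top2b peaks 16.8% did. Counted from the other genotype it was 4 of 36 (11.1%), against 13.3% of all. Both shares were near those of all peaks. Overlap of called peaks is a different measure from the study's comparison of these libraries by reads, where a minority of Top2b sites was altered. With at least 50% of the WT peak covered, only the pair at Nrp1 remained (3.23%). H3K27ac of GNPs overlapped 5 of 31 WT Top2b peaks, where 17.4% of all did, and 8 of 36 of those of Chd7-deficient CGNs, where 26.6% of all did. Within 1 kb of a start there were 4 WT peaks, at Plxna2 (2), Sema6a (1) and Plxna4 (1), and 6 of Chd7-deficient CGNs, at Plxnb2 (2), Nrp1 (2), Sema6a (1) and Plxna4 (1). The Top2b lists give positions without a height, and 1 library per genotype does not separate a change of binding from the variation between cultures.

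The 8 genes were then set beside the pathway they belong to, a list of 56 genes of semaphorins, plexins, neuropilins, the Cxcl12 axis and their intracellular effectors. A WT Chd7 peak was found at 7 of the 56, with 1 peak each, where 14.3% of all protein-coding genes had one, and 0 had one in Chd7-deficient GNPs. Among ligands it was 2 of 20 semaphorins, Sema6a and Sema4f. Among receptors it was 0 of 11 plexins and neuropilins, and in the chemokine axis it was 1 of 3, Cxcr4. Among intracellular effectors it was 4 of 22. H3K27ac lay within 1 kb of a start in 11 of 20 semaphorins, 7 of 11 plexins and neuropilins, 1 of 3 genes of the chemokine axis and 16 of 22 effectors, where 46.5% of all genes had it. For the receptors the 95% exact interval of 0 of 11 reached from 0% to 28.5%, so that the share of all genes with a Chd7 peak lay inside it.

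Of the pathway genes other than the 8, 5 had a WT Chd7 peak. Arhgef12 encodes an exchange factor that plexins of the B class recruit, and its peak (chr9:43105669-43106136, fold enrichment 4.36) was centred 0.085 kb from a start. Limk1, the kinase that inactivates cofilin, had its peak 0.185 kb from a start (chr5:134688535-134689032, fold enrichment 4.24). Dpysl3, a collapsin response mediator, had it 0.125 kb from a start (fold enrichment 4.28), and the transmembrane semaphorin Sema4f 0.263 kb from one (chr6:82917170-82917476, fold enrichment 3.57). Mical2, an oxidase that disassembles actin, had a peak 10.1 kb from its nearest start (chr7:112336293-112336938, fold enrichment 4.14). All 5 overlapped H3K27ac and none overlapped a Chd7 peak of Chd7-deficient GNPs. Top2b peaks were found at 44 of the 56 genes in WT CGNs (133 peaks) and at 53 in Chd7-deficient CGNs (198 peaks). Of all protein-coding genes 62.2% and 71.0% had one. These shares lean on gene length too, and the lengths of the 56 genes were not compared with those of all genes. No density per 100 kb is given for the 56 genes, so their counts are not on the scale of the values that follow. The ratio of Chd7-deficient to WT was 1.26 over the whole lists, which also hold peaks outside gene windows. Over the windows of all genes the densities were 0.889 (WT) and 1.23 (Chd7-deficient) peaks per 100 kb.

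**Figure D5:**
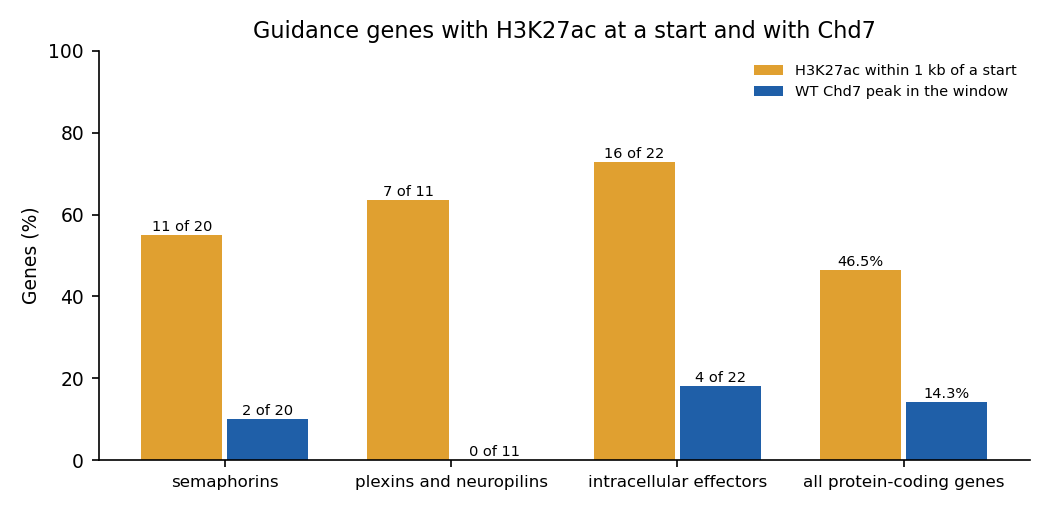
Bars give the percent of genes with an H3K27ac peak within 1 kb of a start and with a WT Chd7 peak in the gene or within 50 kb, for 3 groups of pathway genes, the 8 genes included, and for all protein-coding genes, with counts above the bars. The chemokine axis (3 genes) is not drawn. Plexins and neuropilins have H3K27ac in 7 of 11 and Chd7 in 0 of 11.

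Genes whose peak numbers per 100 kb were most like those of Cxcr4 were found by the Euclidean distance over 5 libraries, on the scale of log2(1 + peaks per 100 kb). These were Htra2 (distance 0.0012), Papolb (0.0019) and Hist1h2br (0.0041), each with the same 2 H3K27ac, 1 WT Chd7 and 1 Top2b peak of Chd7-deficient CGNs in a window of 104 kb. Counts as small as these give many genes nearly the same profile.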

How the data were processed

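The series has 7 ChIP-seq samples of mouse granule cells. The 2 input libraries were not analysed here. The authors trimmed reads with Trim Galore, mapped them to mm10 with Bowtie 1.0.0, and called peaks with MACS2 at default settings (Chd7, H3K27ac) or with HOMER (Top2b). Which control library MACS2 used is not given in the sources used here. The pileup that the authors deposited is a coverage signal at the summit. Fold enrichment and −log10 p and q values had lost their decimal point and were divided by 100000. Values of −log10 p recomputed from pileup and background differed by at most 0.0026 on that scale. This check covered all Chd7 peaks and 31348 of 31400 H3K27ac peaks. The Top2b lists hold positions of peaks of 396 bp (WT) and 400 bp (Chd7-deficient).

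Genes came from GENCODE M21. Peaks overlapped when they shared at least 1 bp. Intervals of pileups are exact Poisson and those of shares Clopper-Pearson, at 95%, and cover counting error only. H3K27ac pileups are scaled and have no interval. With 1 library per condition no test was run. Peak overlaps and windows were tested on simulated intervals. The 8 genes, the pathway list, the markers and the motifs were chosen with earlier results of these data known. The text names all 8 genes, every Chd7 peak in their windows, the highest H3K27ac peak at a start and in the window, Top2b peaks at starts, the 5 other pathway genes with most Chd7 peaks, and the 3 genes closest in profile to each gene with the most Chd7 peaks, of which those for Sema6a are not reported here. Alternatives changed the q-value, the window, the overlap, the joining of H3K27ac peaks and the use of peaks shared between genotypes. Tables were made with pandas 2.3.3 and numpy 2.4.6 in Python 3.11.15, intervals with scipy 1.17.1, sequences were read with pysam 0.24.0, and plots were drawn in matplotlib 3.10.9.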

Additional observations from a re-analysis of the deposited data

How the results depend on the processing

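Of 42 values recomputed under another setting, 35 stayed within 1.5 times the main count or within the 95% interval of the main share. A further 7 moved and 0 reversed, but counts and shares have no sign to reverse. Some values could hardly move. The share of WT Chd7 peaks that overlap H3K27ac rests on 2 peaks (interval 15.8% to 100%), and the count in Chd7-deficient GNPs was 0 in every setting. The count of WT Chd7 peaks, and of genes with one, fell from 2 to 1 at a −log10 q-value of at least 5, where only Cxcr4 remained, and to 1 within gene bodies, where only Sema6a remained. Within gene bodies the H3K27ac peaks numbered 22 in place of 36, since the peaks outside Plxna2, Plxnb2, Cxcr4 and Sema6a were left out by construction. With at least 50% of a WT Top2b peak covered, 3.23% overlapped the other genotype in place of 12.9%. Without H3K27ac peaks near starts, 0 of 8 genes overlapped a super-enhancer-like domain in place of 2. A window of 100 kb, and the requirement that the nearest protein-coding start be that of the gene, changed no count by over 1.5 times. The alternative with the stronger 50% of Top2b peaks was not run because the lists hold no score. No paired analysis was possible because no result comes from a test and each condition has 1 library. The 2 WT Chd7 peaks rest on 23 and 24 fragments, and the depth of each library is not known beyond the pileup.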
